A study of Mus musculus with 8 samples.

Results

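Caveolins, cavins and Ehd2 build caveolae, the small flask-shaped pits of the plasma membrane, and 6 of their genes were followed in cultured mouse cardiac fibroblasts that received a thrombospondin-4 (TSP-4) plasmid or an empty plasmid. The genes are Cav1, Cav2, Cavin1, Cavin2, Cavin3 and Ehd2, taken by name from deposited tables of 54532 genes, and all 6 were among the 14723 genes that passed the expression filter. Cavin3 was included because it was higher with the TSP-4 plasmid under all 4 library letters, so its plasmid difference is given as a description without a test. The other 5 are further caveola structural genes, and the muscle forms Cav3 and Cavin4 were read apart from them, among related genes. Fibroblasts of the C57BL/6 strain at passage 2 received either a plasmid with HA-tagged murine Thbs4, named pAAV.CMV.SV40.THBS4-HA.SV40(polyA), or the empty plasmid pAAV-CA. Both groups then had 12 h in standard medium and 24 h without serum. Each group holds 4 poly(A) libraries, lettered A to D. The constructs differ in name as well as in Thbs4, so the comparison is one of plasmids. No label says that the libraries came from separate cultures or animals, nor what a letter marks, so the p-values speak of differences among these 8 libraries, which may be technical.

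Caveolae form when caveolin-1, a hairpin-shaped membrane protein that assembles into oligomeric discs, is coated by cavins from the cytosolic side. Cavin-1 is required for the coat, cavin-2 and cavin-3 join it, and the ATPase EHD2 sits at the neck and holds the pit at the membrane. Caveolae are abundant in fibroblasts, endothelial cells and adipocytes, flatten when the membrane is stretched, and have been linked to the internalisation of TGF-beta receptors.

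Library totals were 17123735 to 22530947 counts, and both letter A libraries were the deepest, with 22530947 counts in TSP-4 plasmid library A, against 21292609 in empty plasmid library A. Thbs4 had 25754 to 38063 counts in TSP-4 plasmid libraries, against 2 to 11 in empty plasmid libraries, which matches the labels. Col1a1, the main fibrillar collagen gene of fibroblasts, stood at 835 ± 94.8 FPKM in TSP-4 plasmid libraries, against 787 ± 100.4 FPKM in empty plasmid libraries (SD, n = 4 each; FPKM scales reads to gene length and library size).

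Cav1 (ENSMUSG00000007655) lies on the plus strand of chromosome 6 from 17306335 to 17341452 in GRCm38, and Cav2 (ENSMUSG00000000058) on the same strand from 17281185 to 17289115. The genes are 17219 bases apart, with 0 other genes of the table lying wholly between them. Cavin1 (ENSMUSG00000004044) lies on the minus strand of chromosome 11 from 100956733 to 100970887, and Cavin2 (ENSMUSG00000045954) on the plus strand of chromosome 1 from 51289126 to 51302960. Cavin3 (ENSMUSG00000037060) and Ehd2 (ENSMUSG00000074364) both lie on the minus strand of chromosome 7, from 105480083 to 105482300 and from 15946958 to 15967567. Whether reads were counted by strand is not stated. Genes annotated on the opposite strand overlap 4 members, and these partners held few reads: Gm15581 over Cav1 and Cav2 had 0 in every library, 9330175M20Rik over Cavin2 had 1 to 9 and Gm45667 over Cavin3 had 0 to 5.

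Per gene length, Cavin1 and Cavin2 were the most abundant members. FPKM averaged over all 8 libraries 210.0 for Cavin1, 199 for Cavin2, 98.2 for Ehd2, 90.7 for Cav1, 36.1 for Cavin3 and 16.4 for Cav2. Cavin1 ranked 175 and Cavin2 187 among the tested genes, and Cav2, the lowest member, ranked 3209. Cavin1 and Cavin2 lay close together, with Cavin1 higher in 7 of 8 libraries and a ratio between 0.925 and 1.13. Ehd2 and Cav1 also overlapped, with Ehd2 higher in 7 of 8 libraries and a ratio between 0.880 and 1.29. TSP-4 plasmid library A was the exception in both pairs. The other steps of the order held in 8 of 8 libraries.

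Cavin3, a cavin known to bind protein kinase C delta, had 45.7, 40.5, 32.1 and 38.4 FPKM in TSP-4 plasmid libraries A to D, against 38.1, 32.7, 28.2 and 32.7 FPKM in empty plasmid libraries A to D. Within each letter the TSP-4 plasmid library was the higher one, while the groups as a whole overlapped (groups were apart in 1.51% of tested genes, and apart with the TSP-4 plasmid higher in 0.652%), since TSP-4 plasmid library C lay below empty plasmid libraries A, B and D. On library totals adjusted by TMM, a scaling for library composition, Cavin3 averaged 65.3 ± 9.26 CPM (counts at a common library size) in TSP-4 plasmid libraries, against 55.1 ± 6.46 CPM in empty plasmid libraries (SD, n = 4 each). The log2 fold change was 0.25 with an SE of 0.12. Within letters A, B, C and D the log2 difference was 0.26, 0.30, 0.17 and 0.23, each with a counting SE between 0.05 and 0.07. Of all tested genes, 8.03% were higher and 8.04% lower under all 4 letters. Cavin3 made up 8.62 ± 0.994% of the summed FPKM of the 3 cavins in TSP-4 plasmid libraries, against 7.66 ± 0.866% in empty plasmid libraries (SD, n = 4 each).

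**Figure D1:**
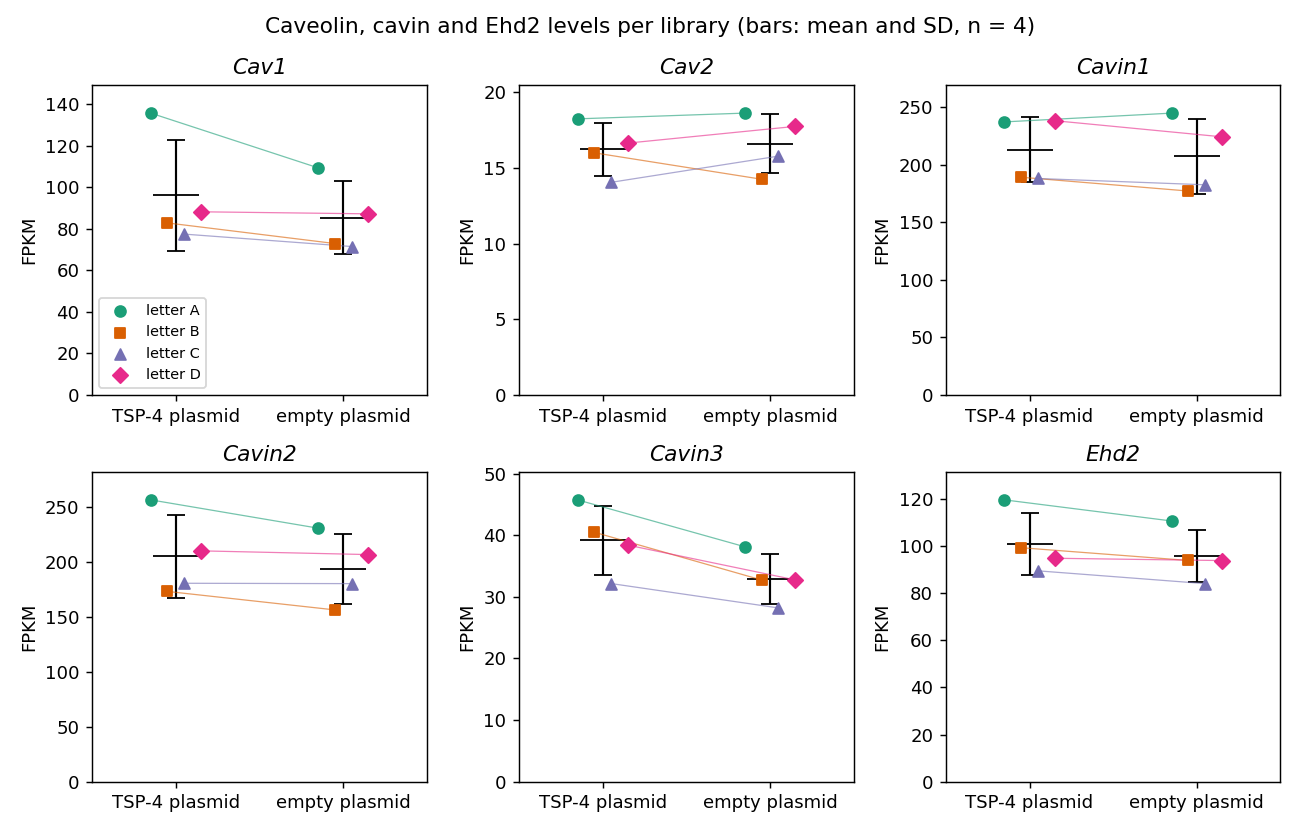
FPKM of each gene in the 8 libraries, with the TSP-4 plasmid on the left and the empty plasmid on the right of each panel. Points are libraries, marked by letter and joined within a letter, and bars give the mean and SD (n = 4). The 4 lines of Cavin3 all run down to the right, and letter A is at or near the top in every panel.

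None of the other 5 members passed the threshold of an adjusted p of 0.05 between the plasmids in edgeR's quasi-likelihood test, in which 0.00679% of all tested genes did. Cav1, the main structural protein of caveolae outside striated muscle, had 135.8, 82.9, 77.5 and 88.2 FPKM in TSP-4 plasmid libraries A to D, against 109.4, 73.0, 71.5 and 87.3 FPKM in empty plasmid libraries A to D. Its groups overlapped, and in each group library A was the highest. The plasmid difference of Cav1 was 0.17 on the log2 scale (SE 0.20, 95% interval -0.30 to 0.64, adjusted p 0.999968), so a change of up to 1.56-fold lies within the interval. This fit leaves the letter differences in its error, which widens its intervals. The within-letter log2 differences of Cav1 were 0.31, 0.18, 0.10 and 0.02 for A to D, higher in 4 of 4 letters but uneven in size. Of all tested genes, 8.03% were higher in 4 of 4 letters, and the letter D difference of Cav1, 0.017, lay within its counting SE of 0.027. With the letters as a replicate block the log2 fold change of Cav1 was 0.15 (SE 0.05, 95% interval 0.06 to 0.25) with an adjusted p of 0.425 in edgeR. By the block's unadjusted p, 0.00455, Cav1 was under 0.05, as were 8.12% of all tested genes.

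Cav2, which forms hetero-oligomers with caveolin-1, had 18.2, 15.99, 14.0 and 16.6 FPKM in TSP-4 plasmid libraries A to D, against 18.6, 14.2, 15.8 and 17.7 FPKM in empty plasmid libraries A to D. It was lower with the TSP-4 plasmid in 3 of 4 letters, and the groups overlapped. Its log2 fold change was -0.04 with a 95% interval from -0.26 to 0.19.

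Cavin1, the cavin that the coat requires, had 237.0, 189, 188 and 238 FPKM in TSP-4 plasmid libraries A to D, against 245, 177, 182 and 224 FPKM in empty plasmid libraries A to D. Libraries A and D were high and B and C low in both groups, and the groups overlapped. Its log2 fold change was 0.04 with a 95% interval from -0.25 to 0.32. Cavin2, which promotes membrane curvature, had 256, 173, 180.3 and 210 FPKM in TSP-4 plasmid libraries A to D, against 230.4, 156, 180.0 and 206 FPKM in empty plasmid libraries A to D. Its log2 fold change was 0.08 with a 95% interval from -0.26 to 0.42. In log2 CPM it was higher in 3 of 4 letters. Letter C was near level, at -0.01 in log2 CPM and 180.3 against 180.0 in FPKM.

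Ehd2, which encodes the ATPase of the caveola neck, had 119.5, 99.2, 89.4 and 94.8 FPKM in TSP-4 plasmid libraries A to D, against 110.6, 93.8, 84.0 and 93.8 FPKM in empty plasmid libraries A to D. It was higher in 4 of 4 letters, as were 8.03% of all tested genes, by log2 differences of 0.02 to 0.11, and the groups overlapped. The letter D difference of Ehd2, 0.016, lay within its counting SE of 0.022. Its log2 fold change was 0.07 (95% interval -0.17 to 0.31). All 5 genes had the same adjusted p, 0.999968, and with the replicate block, where 0.0136% of tested genes passed, it lay between 0.425 and 0.906. The 95% intervals were narrower with the block: -0.16 to 0.08 for Cav2 and -0.04 to 0.12 for Cavin1. They were -0.006 to 0.159 for Cavin2 and -0.005 to 0.144 for Ehd2. The median log2 fold change was 0.08 over the 6 members and -0.00 over all tested genes. The 6 include Cavin3, chosen for being higher, so nothing is drawn from the gap between these medians. Without TSP-4 plasmid library A, which leaves letter A in the empty plasmid group alone, the log2 fold change was -0.04 for Cav1, -0.02 for Cavin1, -0.04 for Cavin2 and -0.02 for Ehd2. With both letter A libraries left out and the replicate block it was 0.10 for Cav1, 0.07 for Cavin1, 0.05 for Cavin2 and 0.06 for Ehd2, with an adjusted p between 0.859 and 0.965 in edgeR.

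**Figure D2:**
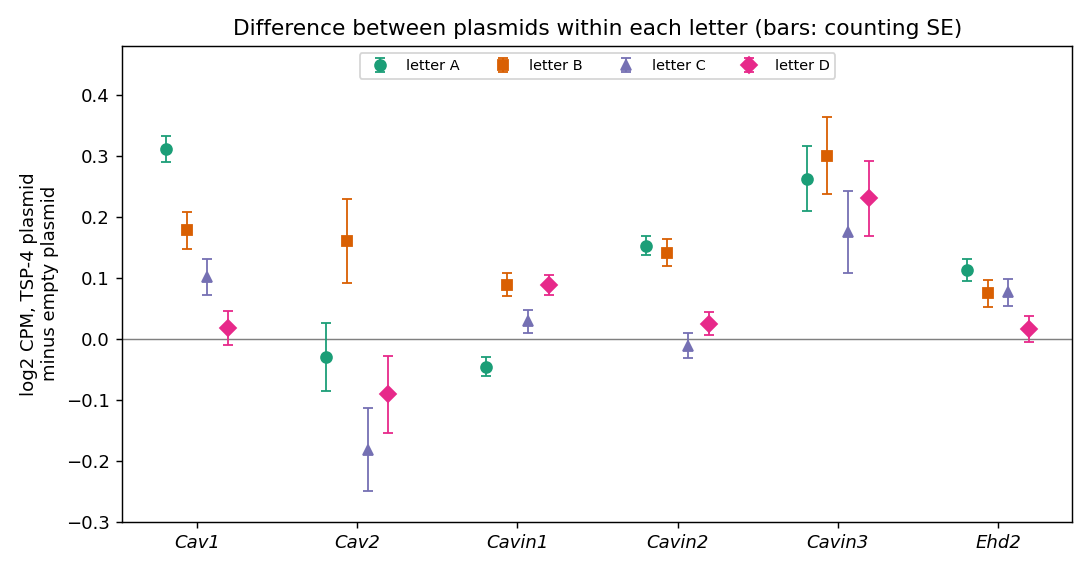
Difference in log2 CPM, TSP-4 plasmid minus empty plasmid, within letters A to D for each gene. Points are letters and bars are the SE from counting alone. The 4 Cavin3 points lie between 0.17 and 0.30, while those of Cav1 run from 0.31 in letter A to 0.02 in letter D.

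The letters separated all 6 members. Each passed the threshold in edgeR's quasi-likelihood test of the 3 letter terms with plasmid in the model, where 28.1% of all tested genes did. Among the 4802 tested genes with a mean FPKM of at least 10, which all members reach, 37.1% did. By the fit, every member was highest in letter A, as were 25.1% of all genes called by letter, and 7.05% of tested genes were both called and highest in A. The spread between the highest and lowest letter was 0.70 on the log2 scale for Cav1, which is 1.63-fold (adjusted p 6.79e-06). It was 0.55 for Cavin2 (adjusted p 1.95e-05), 0.46 for Cavin3 (0.000691), 0.39 for Ehd2 (0.000212), 0.38 for Cavin1 (5.89e-05) and 0.29 for Cav2 (0.0251). Cavin3 was chosen because its plasmid differences within letters agreed in sign. How far they agree enters the error of the letter test, so the letter p of Cavin3 depends in part on that choice. The median spread was 0.43 for the members, 0.30 for all tested genes and 0.20 for those with a mean FPKM of at least 10. Letters took 89.6% of the sum of squares of log2 CPM for Cav1 and 96.4% for Cavin1, but 63.7% for Cavin3, for which the plasmids, the contrast it was chosen by, took 35.0%. The medians over all tested genes were 68.4% for letters and 4.96% for plasmids.

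The order of the lower letters was not the same for all members. By the fit, Cav1 and Cav2 ran A, D, B, C from high to low, and Cavin1 and Cavin2 ran A, D, C, B. Cavin3 and Ehd2 ran A, B, D, C. Some steps were small: B and C stood at -0.182 and -0.167 for Cavin1, and at -0.106 and -0.129 for Cav2. Nor did each order hold in both groups. In CPM, Cavin1 ran D, A, B, C with the TSP-4 plasmid, and Cav2 ran A, D, C, B with the empty plasmid. In letter B, Cavin3 stood 0.04 above its mean over the letters on the log2 scale and Ehd2 0.01 below it, where Cavin1 stood at -0.18 and Cavin2 at -0.25. Over the 8 libraries Pearson's r of log2 CPM was 0.881 between Cavin3 and Ehd2 and 0.910 between Cavin1 and Cavin2. It was 0.588 between Cavin1 and Cavin3, and over the 15 member pairs it ran from 0.523 (Cav2 with Cavin3) to 0.936 (Cav1 with Ehd2). The r values of Cavin3 also hold the plasmid difference it was chosen by. Libraries of a letter resemble each other, so these 8 are not independent, and the values describe this set only.

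**Figure D3:**
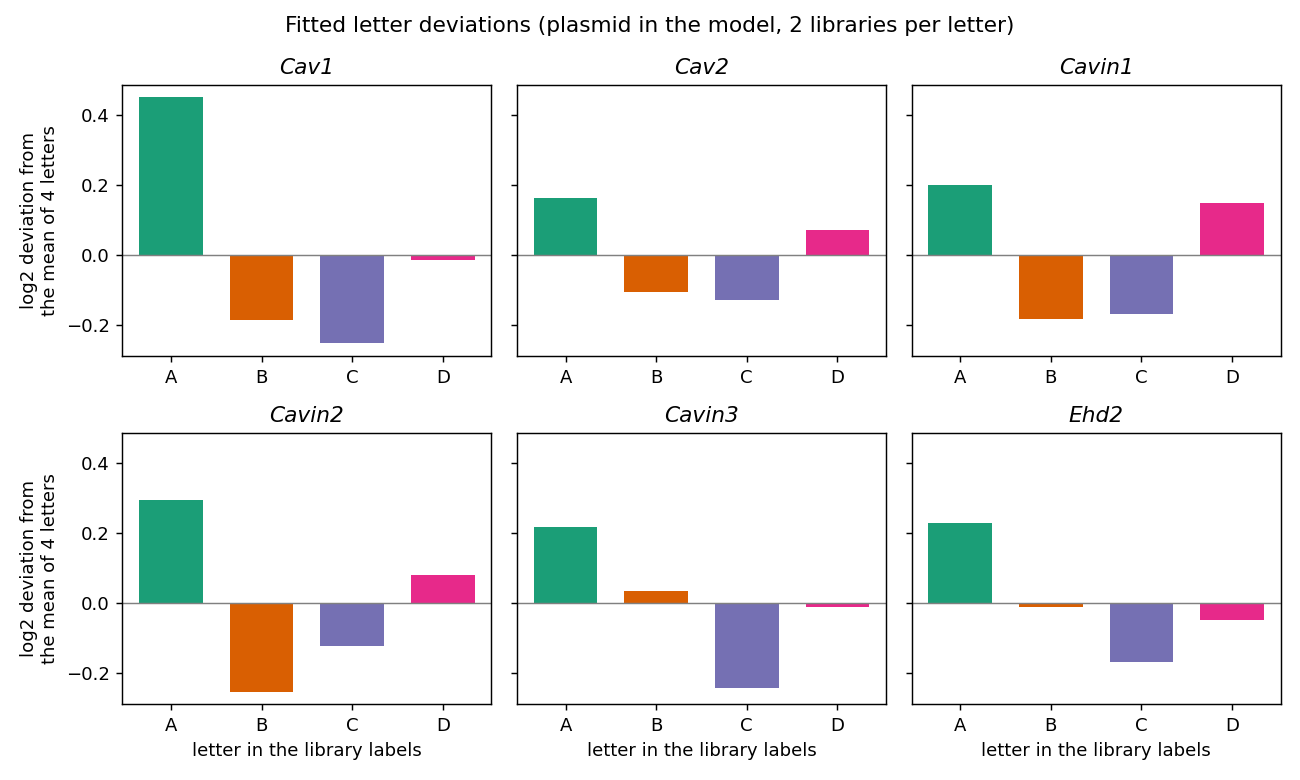
Fitted log2 deviation of each letter from the mean of the 4 letters for each gene, with plasmid in the model and 2 libraries per letter. Bars are letters A to D. Letter A is highest in every panel, letter B is low for Cav1, Cav2, Cavin1 and Cavin2, and letter B is near 0 for Cavin3 and Ehd2.

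Depth and cell type markers also moved with the letters. Both letter A libraries were the deepest. The summed CPM of 9 macrophage markers was 303, 740, 1714 and 746 in TSP-4 plasmid libraries A to D, against 328, 991, 1387 and 620 in empty plasmid libraries A to D, so letter A was lowest and C highest. All 9 macrophage markers passed the letter test. Endothelial cells and adipocytes are rich in caveolae. The summed CPM of 9 endothelial markers lay between 51.0 and 73.7 in TSP-4 plasmid libraries, and between 53.2 and 90.6 in empty plasmid libraries, and 4 of the 8 tested passed the letter test. Of these, Emcn was highest in letter A (5.29 FPKM, against 1.72 in B; adjusted p 9.48e-06 in edgeR), and Pecam1, Tek and Egfl7 were highest in other letters. Of 5 adipocyte markers 1 passed the expression filter. Their summed CPM lay between 3.88 and 9.75 in TSP-4 plasmid libraries and between 5.32 and 9.53 in empty plasmid libraries, and Adipoq had 5 reads in all libraries together. The tested marker, Fabp4, had 994 reads in all and passed the letter test, highest in letter C (adjusted p 0.00320 in edgeR). The summed CPM of 7 smooth muscle and pericyte markers lay between 38.1 and 60.2 in TSP-4 plasmid libraries, and between 45.0 and 66.9 in empty plasmid libraries. In both groups this sum was highest in letter B and lowest in D. Of the 5 tested, only Cnn1 passed the letter test, and it was highest in letter A (adjusted p 0.000970 in edgeR). Rgs5 and Notch3 were highest in letter B, Cspg4 in C and Myh11 in A. The 9 cardiomyocyte markers summed to 13.0 to 17.8 CPM in TSP-4 plasmid libraries and 12.4 to 16.9 CPM in empty plasmid libraries, with 7 reads of Myh6 in all. The tested marker, Tnnt2, had 2078 reads in all and passed the letter test, highest in letter A (adjusted p 0.0117 in edgeR). The 8 cardiac fibroblast markers summed to 10464, 10688, 9945 and 7701 CPM in TSP-4 plasmid libraries A to D. In empty plasmid libraries A to D the sum was 9428, 11084, 8637 and 7628 CPM. Letter B was thus highest and D lowest in both groups. Of these markers, 7 passed the letter test. Col1a1 and Thy1 were highest in letter A, and Col1a2, Pdgfra, Tcf21, Dcn, Lum and Ddr2 in letter B. The part of depth and cell makeup in the letter differences was not tested. In bulk RNA, fewer cells of a type and less RNA per cell cannot be told apart. With both letter A libraries left out, 5 members kept their call at 23.8% of genes called, with spreads of 0.24 for Cav1, 0.33 for Cavin1, 0.34 for Cavin2, 0.28 for Cavin3 and 0.16 for Ehd2, and Cav2 lost it at a spread of 0.21 (adjusted p 0.104 in edgeR).

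All 6 members differed between letters and were highest in letter A, but the reference used held no promoter entry for Cavin3. The promoters of the other 5 are shown. They are the RefSeq windows of GRCm38.p6 from 250 bases before to 50 bases after the RefSeq gene start, which for Cavin1 and Ehd2 lies inside the gene as the table bounds it. Capitals mark the GC box GGGCGG, the CCAAT box, the TEAD motif GGAATG and the TATA box TATAAA, each searched on both strands. The CArG box was searched too.
Cav1 promoter, chr6:17306085-17306384, plus strand: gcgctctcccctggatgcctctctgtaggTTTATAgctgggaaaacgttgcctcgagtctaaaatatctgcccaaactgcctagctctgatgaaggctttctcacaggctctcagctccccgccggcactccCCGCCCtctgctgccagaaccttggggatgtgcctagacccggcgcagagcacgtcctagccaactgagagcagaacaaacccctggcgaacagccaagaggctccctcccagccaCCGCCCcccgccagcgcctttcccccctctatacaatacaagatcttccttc
Cav2 promoter, chr6:17280935-17281234, plus strand: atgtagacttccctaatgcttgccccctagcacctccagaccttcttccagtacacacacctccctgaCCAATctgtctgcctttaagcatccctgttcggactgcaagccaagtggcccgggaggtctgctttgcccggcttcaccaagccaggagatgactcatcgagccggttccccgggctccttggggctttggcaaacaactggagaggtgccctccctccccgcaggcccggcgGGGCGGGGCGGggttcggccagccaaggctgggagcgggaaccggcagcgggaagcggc
Cavin1 promoter, chr11:100970568-100970867, minus strand: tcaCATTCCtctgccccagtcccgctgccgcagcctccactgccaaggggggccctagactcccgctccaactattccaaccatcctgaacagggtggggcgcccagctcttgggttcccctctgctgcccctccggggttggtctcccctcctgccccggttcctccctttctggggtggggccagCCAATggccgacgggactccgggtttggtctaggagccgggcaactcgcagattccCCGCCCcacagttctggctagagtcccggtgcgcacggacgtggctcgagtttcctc
Cavin2 promoter, chr1:51288876-51289175, plus strand: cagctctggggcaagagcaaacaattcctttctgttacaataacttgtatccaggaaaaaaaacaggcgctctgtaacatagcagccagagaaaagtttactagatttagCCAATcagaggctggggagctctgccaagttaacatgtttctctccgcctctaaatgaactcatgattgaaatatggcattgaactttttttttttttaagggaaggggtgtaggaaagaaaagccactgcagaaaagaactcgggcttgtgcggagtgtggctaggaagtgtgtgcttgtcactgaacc
Ehd2 promoter, chr7:15967486-15967785, minus strand: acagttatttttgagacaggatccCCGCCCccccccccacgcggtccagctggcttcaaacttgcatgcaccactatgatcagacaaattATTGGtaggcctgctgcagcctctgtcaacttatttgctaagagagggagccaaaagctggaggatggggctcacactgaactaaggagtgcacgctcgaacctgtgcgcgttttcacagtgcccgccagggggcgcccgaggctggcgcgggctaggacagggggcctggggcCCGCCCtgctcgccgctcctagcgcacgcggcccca

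GC boxes were found in Cav1 (2), Cav2 (2, sharing a base), Cavin1 (1) and Ehd2 (2), and in 35.9% of 32544 promoter windows of this length. A CCAAT box was found in Cav2, Cavin1, Cavin2 and Ehd2, and in 37.4% of all windows. Cavin1 held the TEAD motif, as did 14.6% of windows, and Cav1 the TATA letters 221 bases before its start, as did 13.6%. The CArG box matched none of the 5 and 1.64% of windows. Different motifs did not overlap in these sequences. The GC content was 43.3% in Cavin2, against 59.3% in Cav1, 64.3% in Cav2, 66.7% in Cavin1 and 62.0% in Ehd2, and the median of all windows was 53.0%.

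The ratio of coat to membrane protein transcripts was also set between the plasmids. The Cavin1 to Cav1 FPKM ratio was 1.75, 2.28, 2.42 and 2.70 in TSP-4 plasmid libraries A to D, against 2.24, 2.43, 2.55 and 2.57 in empty plasmid libraries A to D. TSP-4 plasmid library A had the lowest ratio and the groups overlapped. The mean was 2.29 ± 0.401 in TSP-4 plasmid libraries, against 2.45 ± 0.153 in empty plasmid libraries (SD, n = 4 each; exact two-sided permutation p 0.543, where 0.0286 is the smallest possible). The Cav2 to Cav1 FPKM ratio was 0.134, 0.193, 0.181 and 0.188 in TSP-4 plasmid libraries A to D, against 0.170, 0.195, 0.221 and 0.203 in empty plasmid libraries A to D. It was lower with the TSP-4 plasmid in 4 of 4 letters, with a mean of 0.174 ± 0.0271, against 0.197 ± 0.0210 with the empty plasmid (SD, n = 4 each; exact two-sided permutation p 0.257). Flipping signs within letters gave an exact p of 0.125 for the Cav2 to Cav1 ratio, the smallest that 4 letters allow. For the Cavin1 to Cav1 ratio, higher with the TSP-4 plasmid in 1 of 4 letters, the same test gave 0.25. Without TSP-4 plasmid library A the log2 difference of the Cav2 to Cav1 ratio was -0.07, against -0.19 with all libraries, and that of the Cavin1 to Cav1 ratio was 0.01, against -0.11.

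**Figure D4:**
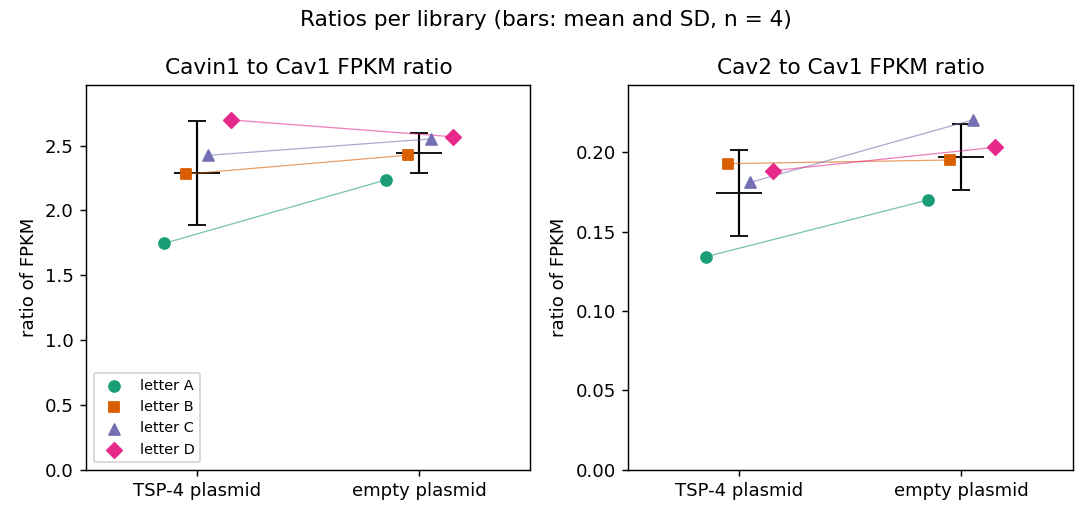
Ratio of FPKM per library, Cavin1 to Cav1 on the left and Cav2 to Cav1 on the right, with the TSP-4 plasmid left of the empty plasmid in each panel. Points are libraries joined within a letter, and bars give the mean and SD (n = 4). Letter A has the lowest ratio in both groups and both panels.

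Genes that act beside caveolae were read as lists. Of 39 genes in 5 lists, 37 were tested, 0 passed between the plasmids in edgeR and 17 passed between letters, where 28.1% of all tested genes and 37.1% of those with a mean FPKM of at least 10 did. Their median log2 fold change between plasmids was 0.01, and their median letter spread was 0.28. The muscle forms were low: Cav3, the caveolin of striated muscle, stood at 5.73 ± 1.04 FPKM in TSP-4 plasmid libraries, against 5.11 ± 0.558 FPKM in empty plasmid libraries (SD, n = 4 each). Cavin4, the muscle cavin, had 7 to 15 reads per library. Among 11 genes of the caveola neck and scission, 10 were tested and 4 passed between letters. The actin linker Flna, a partner of caveolin-1, stood at 211 ± 15.9 FPKM in TSP-4 plasmid libraries, against 211 ± 23.4 FPKM in empty plasmid libraries (SD, n = 4 each), and was highest in letter A (240 FPKM, adjusted p between letters 0.00273). Ehd1, a relative of Ehd2 in endocytic recycling, stood at 107 ± 10.4 FPKM in TSP-4 plasmid libraries, against 107 ± 7.26 FPKM in empty plasmid libraries (SD, n = 4 each) and was highest in letter D. The scission GTPase Dnm2 stood at 38.1 ± 0.932 FPKM in TSP-4 plasmid libraries, against 38.1 ± 0.939 FPKM in empty plasmid libraries (SD, n = 4 each), and its letter spread was 0.04 (adjusted p 0.886).

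In the clathrin coat, another endocytic route, 4 of 13 genes passed between letters, a share near that of all tested genes (28.1%), and the median letter spread was 0.12, against 0.43 for the 6 members. This was the smallest of the 5 lists. The median spread was 0.76 for the muscle forms, 0.27 for caveola neck and scission, 0.40 for flotillins and stomatin and 0.42 for receptors and kinases. The clathrin light chain Clta stood at 137 ± 6.08 FPKM in TSP-4 plasmid libraries, against 135 ± 6.16 FPKM in empty plasmid libraries (SD, n = 4 each). Of the raft proteins Flot1, Flot2 and Stom, 2 passed between letters. Flot1 averaged 21.2 and 21.1 FPKM in letters A and B, against 14.5 and 13.0 FPKM in C and D, and Stom was highest in letter C at 21.5 FPKM. Of 10 receptors and kinases reported in caveolae, 9 were tested and 7 passed between letters. Tgfbr2, the type II TGF-beta receptor, stood at 24.0 ± 4.66 FPKM in TSP-4 plasmid libraries, against 22.0 ± 4.27 FPKM in empty plasmid libraries (SD, n = 4 each). By letter it averaged 19.0, 26.6, 26.9 and 19.5 FPKM for A to D, low in A and D where Cavin1 and Cavin2 were high (adjusted p between letters 0.000108). The others that passed peaked in different letters: Igf1r in A, Tgfbr1, Pdgfra and Pdgfrb in B, Insr in C and Fyn in D.

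Genes whose log2 CPM followed each member most closely over the 8 libraries were sought among 9086 named genes with a mean of at least 10 CPM. For Cav1 these were Unc119 (Pearson's r 0.996), Macf1 (0.992) and Arhgap21 (0.992). For Cav2 they were Slc25a24 (0.988), Pfn2 (0.978) and Cpox (0.970), and for Cavin1 Lrrn4 (0.994), BC031181 (0.990) and Coq10b (0.988). Cavin2 was followed by Vps26a (0.987), Chmp5 (0.986) and Kif1b (0.985), and Ehd2 by Dirc2 (0.990), Tgfb3 (0.990) and Map2 (0.985). Cavin3 was followed least closely, by Ndufv2 (0.966), Lonp2 (0.956) and Raly (0.955). The plasmid difference that Cavin3 was chosen by was left in these values, so its r values depend in part on that choice. At an r of at least 0.9 there were 204 genes for Cav1, 93 for Cav2 and 262 for Cavin1. There were 202 for Cavin2, 52 for Cavin3 and 157 for Ehd2, over 8 libraries that share letters.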

How the data were processed

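Poly(A) RNA libraries (NEBNext Ultra, per the labels) were made from 4 samples per plasmid. Tools listed without roles, per the submitters' processing notes, are HTSeq 0.6.1, Cufflinks 2.1.1, TopHat2 2.0 and CASAVA, and the builds GRCm38.p6 and mm10. The sources used here give no strand setting, annotation release or treatment of multi-mapping reads. The deposited table of whole-number counts and the deposited FPKM table hold the same 54532 genes. FPKM served for levels and ratios, and counts for tests.

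edgeR 4.0.16 (R 4.3.3; quasi-likelihood, robust, TMM factors, minimum count 10, Benjamini-Hochberg over 14723 genes, threshold 0.05) was fitted with plasmid alone, and with plasmid and letter for the letter test. It was also run on simulated counts. Far fewer genes differed by letter there than in these data, so that run does not gauge the plasmid-only fit, and nothing is drawn from it. DESeq2 1.42.0, limma 3.58.1, other scaling and filters, left-out libraries and a replicate block were alternatives. Correlations used log2 CPM with a prior count of 2. Paired libraries of the same letter deviated together, with r from 0.508 to 0.651 across genes, against -0.570 to 0.323 for different letters, so the letters pair the libraries, by the data and not the labels. Counts range from 794 for a member in a library upwards, and counting SEs cover counting error only.

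Members and gene lists were chosen with earlier results of these data known. Named genes are the 6 members, Thbs4 and at most the 3 genes of highest mean FPKM in each related list. Some, but not all, of the related genes past a threshold are named too. So are the 3 genes with the highest Pearson correlation to each member, among genes with a mean of at least 10 CPM and a symbol other than Gm numbers or Rik. Marker genes named singly were chosen after their values were seen.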

Additional observations from a re-analysis of the deposited data

Results flagged for a closer look

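Of 24 groups of 4 values examined (levels, ratios, cavin shares and library totals), 1 had a library far from the other 3: the total count of TSP-4 plasmid library A, 22530947 against at most 17681837, whose gap was 0.897 of the group's range. Chance flags about 5% of such groups. No level of a member was set apart in this way.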

How the results depend on the processing

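Under RLE size factors, no expression filter, DESeq2, limma voom and limma on FPKM, the plasmid fold changes of the 5 tested members kept their sign and 0 of them passed. The plasmid contrast gave 1 gene higher and 0 lower in each of these; with the replicate block it gave 1 higher and 1 lower, none of them among the 5 tested members. With the block it gave 2 higher and 3 lower without letter A, 3 higher and 1 lower without B, 1 higher and 1 lower without C and 1 higher and 0 lower without D. Leaving out libraries moved the log2 fold change of Cav1 between -0.04 and 0.31, Cav2 between -0.10 and 0.03, Cavin1 between -0.03 and 0.12, Cavin2 between -0.04 and 0.17, Ehd2 between -0.02 and 0.15 and Cavin3, whose sign its choice sets, between 0.17 and 0.34. Leaving out 1 library unbalances the letters. Without TSP-4 plasmid library A the value was -0.0425 for Cav1, -0.0155 for Cavin1, -0.0433 for Cavin2 and -0.0173 for Ehd2. Cavin1 was also below 0 without TSP-4 plasmid library D (-0.0223), empty plasmid library B (-0.0291) and empty plasmid library C (-0.0167), and Cavin2 without empty plasmid library B (-0.00807). Cav2 was above 0 at 0.0320 without TSP-4 plasmid library C, 0.0193 without empty plasmid library A and 0.0120 with the block and without letter C. The letter test called 4134 genes, 2716 by DESeq2 (19.6% of genes with an adjusted p) and 2782 to 4253 with libraries left out. Cav1, Cavin1, Cavin2, Cavin3 and Ehd2 kept their letter call in all 16 alternatives, and Cav2 in 10 of them, with an adjusted p of 0.0808 in DESeq2 and 0.0533 to 0.104 in the 5 left-out cases that lost it. For Cavin3 these calls depend in part on how it was chosen. Without the expression filter 16.7% of genes were called, and 18.6% without TSP-4 plasmid library D. The log2 difference of the Cavin1 to Cav1 ratio was -0.11 and lay between -0.20 and 0.01 with 1 library left out, reaching 0.0119 without TSP-4 plasmid library A. That of the Cav2 to Cav1 ratio was -0.19 and lay between -0.26 and -0.07. The cause of these shifts was not tested.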
